A study of Mus musculus with 79 samples.

Results

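The 10 genes examined encode the receptor, scaffolds, kinase, transporters, transcription factor and phosphodiesterase through which insulin acts on adipocytes (Insr, Irs1, Irs2, Irs3, Pik3r1, Akt2, Foxo1, Slc2a4, Slc2a1 and Pde3b). They were taken by gene symbol from 74693 features in the gene tables, and all 10 passed the filter on level, a mean of at least 0.4 TPM (counts scaled for transcript length and library size), which left 14873 genes for testing. RNA was sequenced from 79 samples of 51 mice, aged 4 to 5 months per the labels. Leptin at 100 ng per h or PBS was delivered into the brain (intracerebroventricular, ICV) for 9 days. The study's own text gives 4 to 6 months for the WT and cKO mice, and 5 to 6 months for its males with insulin pellets. WT mice (BMAd-Pnpla2+/+) gave caudal vertebrae (CV, tail bones rich in stable marrow fat) from 5 PBS and 5 leptin females and 5 PBS and 8 leptin males, and the same females gave lumbar vertebrae (LV, vertebrae with little fat) and inguinal white adipose tissue (iWAT). A further 5 PBS and 6 leptin WT males also carried insulin given under the skin, and only their CV were sequenced. The cKO mice (BMAd-Pnpla2-/-), which lack the lipase ATGL in bone marrow adipocytes, gave CV from 4 PBS and 4 leptin females and 5 PBS and 4 leptin males, and LV from the same females. WT and cKO mice shared a mixed SJLxC57BL6 background, and the Cre driver behind BMAd is not given in the sources used here.

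Insulin binds its receptor, which phosphorylates insulin receptor substrate (IRS) scaffolds. These recruit phosphoinositide 3-kinase, and the lipid it makes activates AKT2, the main AKT form for glucose uptake in fat and muscle. AKT2 sends the transporter GLUT4 to the cell surface, keeps FOXO1 out of the nucleus and activates PDE3B, which breaks down cAMP and so restrains lipolysis. When insulin is low, FOXO1 enters the nucleus, where Irs2 and Insr are among its textbook targets.

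Libraries held 16100377 to 19364106 counts in CV, 28717516 to 29757254 in LV and 17638318 to 19100698 in iWAT. The summed level of 10 adipocyte markers was 72904 to 95730 TPM in PBS-treated female iWAT, 13475 to 18459 TPM in CV and 484 to 817 TPM in LV, with no marker at 0 in every library of a group. CV also carried 13 skeletal muscle markers at a summed 32404 to 65893 TPM in PBS-treated females and 66527 to 80272 TPM in PBS-treated males, against 99.4 to 3905 TPM in female iWAT. In PBS-treated WT females 7 neutrophil markers summed to 147940 to 179166 TPM in LV, 2162 to 11448 TPM in CV and 198 to 482 TPM in iWAT. TPM is a share of the library, so this bears on the TPM of other genes in LV. In whole tissue, fewer cells of a type and less RNA per cell cannot be told apart, and Slc2a4, Akt2 and Irs1 are also active in muscle. Pnpla2 itself was at 191 to 294 TPM in CV of PBS-treated WT males and 135 to 209 TPM in cKO males, overlapping ranges in a tissue where other cells also express it. Mouse numbers fell into series (100s, 300s, 400s, 600s and 5000s), and all insulin-treated mice were in the 300s and 400s, so series and insulin cannot be told apart.

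With leptin, estimates in WT CV and iWAT were higher for the scaffolds Irs1 and Irs2 and lower for Irs3. In the main test described below, no comparison passed the thresholds in both directions. The bases just before the start sites of these genes are shown. Each run is the 250 bases upstream of the RefSeq start in GRCm38.p6, 5′ to 3′ on the gene's own strand, with CACGTG (an E-box, the palindrome bound by several basic helix-loop-helix factors) in capitals. Irs1 lies on chromosome 1 (82233105 to 82291439), with this window at chr1:82291440-82291689 on the minus strand. Irs2 lies on chromosome 8 (10984681 to 11008929), with the window at chr8:11008930-11009179, minus strand. Irs3 lies on chromosome 5 (137643032 to 137645714), with the window at chr5:137645715-137645964, minus strand.
Irs1: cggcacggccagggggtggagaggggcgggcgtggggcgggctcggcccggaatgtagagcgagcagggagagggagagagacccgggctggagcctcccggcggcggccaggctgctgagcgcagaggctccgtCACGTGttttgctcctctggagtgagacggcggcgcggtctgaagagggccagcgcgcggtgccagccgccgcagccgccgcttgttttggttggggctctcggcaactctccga
Irs2: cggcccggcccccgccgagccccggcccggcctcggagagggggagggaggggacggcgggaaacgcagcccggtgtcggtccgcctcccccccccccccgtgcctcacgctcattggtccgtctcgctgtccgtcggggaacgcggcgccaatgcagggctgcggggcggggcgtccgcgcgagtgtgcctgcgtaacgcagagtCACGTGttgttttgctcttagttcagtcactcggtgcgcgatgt
Irs3: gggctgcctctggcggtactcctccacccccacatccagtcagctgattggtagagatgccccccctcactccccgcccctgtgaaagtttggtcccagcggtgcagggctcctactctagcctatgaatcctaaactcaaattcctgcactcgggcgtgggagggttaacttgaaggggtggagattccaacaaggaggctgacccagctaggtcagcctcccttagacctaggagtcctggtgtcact
Irs1 and Irs2 each held 1 CACGTG and Irs3 held none. Of the 7 members with a window in the RefSeq table, Irs1 and Irs2 were the ones with this hexamer, which occurred in 6.02% of 32851 windows of the same length. Of forkhead motifs only GTAAACA was searched, on both strands. It was in none of the members' windows and in 3.17% of the same 32851 windows, which leave out 1 chromosome that holds no member. Other sequences that FOXO1 may bind were not searched. A match or its absence in these letters describes the window and not binding.

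The tissues differed first in level. In PBS-treated WT females Slc2a4, which encodes the insulin-responsive transporter GLUT4 (chromosome 11, 69942286 to 69948216), was at 132 ± 7.60 TPM in CV (SD, n = 5), 11.54 ± 1.597 TPM in LV and 199 ± 20.1 TPM in iWAT. Slc2a1, which encodes the constitutive transporter GLUT1 (chromosome 4, 119108745 to 119137330), had another order, with 74.1 ± 9.40 TPM in CV, 13.1 ± 2.26 TPM in LV and 22.0 ± 1.81 TPM in iWAT. Thus Slc2a4 exceeded Slc2a1 in CV and iWAT with ranges apart, whereas in LV the ranges of the 2 transporters overlapped. Irs3, a scaffold expressed mainly in rodent fat, had the widest spread of all members. It was at 27.6 ± 1.303 TPM in iWAT, 1.89 ± 0.311 TPM in CV and 0.188 ± 0.0653 TPM in LV.

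Against LV, 9 of 10 members were called higher in CV (adjusted p below 0.05 by edgeR's quasi-likelihood test over all tested genes, and a log2 fold change of at least 0.5). Of all tested genes 66.3% were called in that comparison and 34.7% were called higher. The log2 difference was 2.51 for Slc2a4 (SE 0.12), 2.39 for Irs1 (SE 0.12), 2.17 for Irs3 (SE 0.21) and 2.07 for Pde3b (SE 0.24), and 0.54 for Insr (SE 0.10). Akt2 was 0.33 higher (SE 0.09, adjusted p = 0.00234), under the fold threshold. Against iWAT, CV had lower Irs3 by a log2 difference of -4.04 (SE 0.16), lower Pde3b (-1.88, SE 0.23), Akt2 (-1.25, SE 0.09), Slc2a4 (-0.74, SE 0.12) and Insr (-0.63, SE 0.10), and higher Slc2a1 (1.57, SE 0.09), which makes 6 members called where 50.9% of all genes were. Irs1 (-0.23, SE 0.11, adjusted p = 0.0799) and Irs2 (0.19, SE 0.17, adjusted p = 0.325) did not pass the test between CV and iWAT. Between iWAT and LV 8 members were called, all higher in iWAT, where 67.1% of all genes were called and 34.2% were called higher. These folds rest on scaling by edgeR's trimmed mean of M-values. On the TPM scale the median log2 difference of all genes was 0.87 for CV against LV and 0.71 for iWAT against LV, the share of called genes that were higher went from 52.3% to 86.3% (CV against LV), from 50.4% to 60.9% (CV against iWAT) and from 51.0% to 81.2% (iWAT against LV), while Slc2a1 changed sides between iWAT and LV, from -0.18 (edgeR, adjusted p = 0.0773) to 0.71 (limma on log2(TPM + 1), where it was called).

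**Figure D1:**
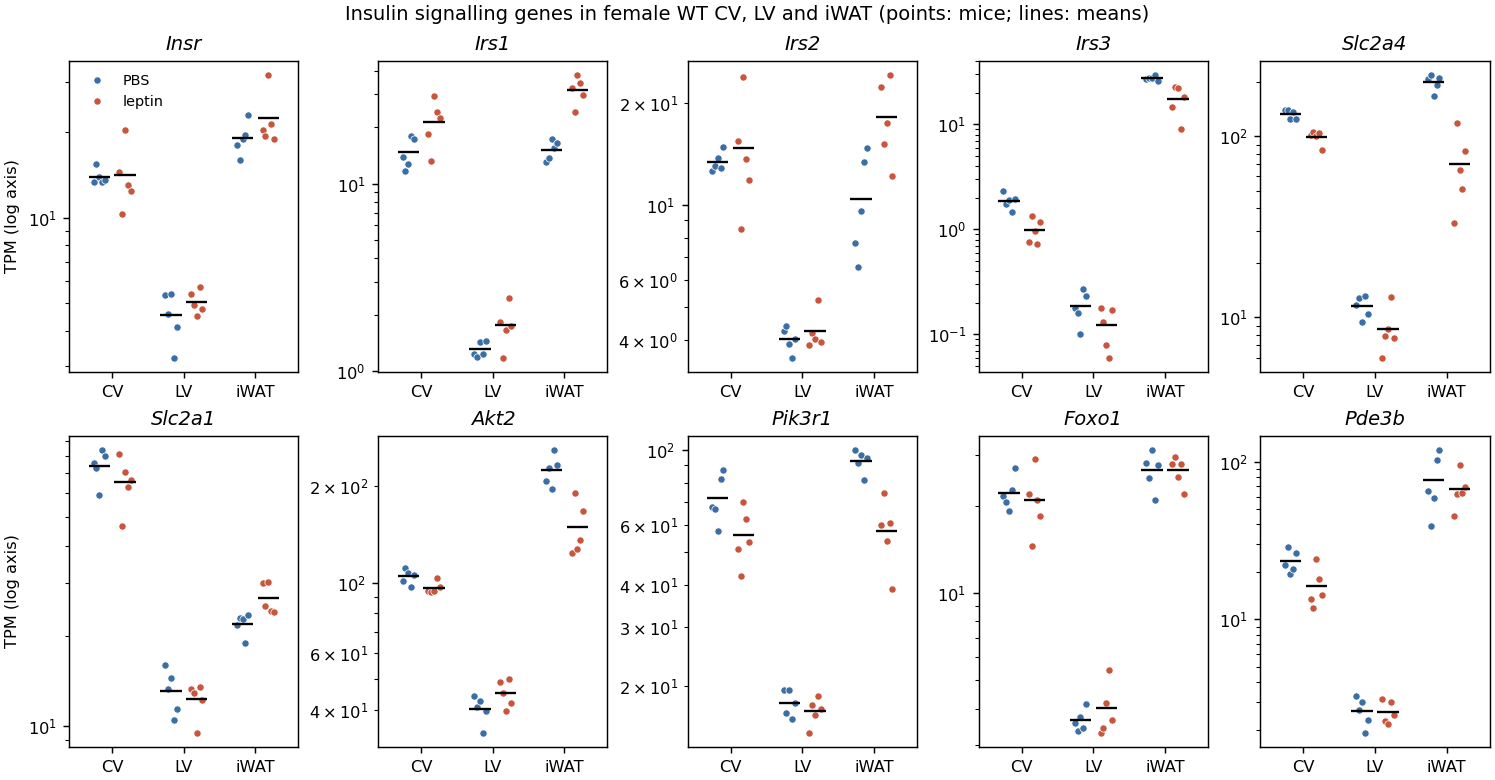
TPM (log axes) of the 10 members in CV, LV and iWAT of female WT mice with PBS (blue) or leptin (red), 5 mice each; points are mice and lines are means. With PBS, mean levels of all 10 members were lowest in LV and Slc2a1 was higher in CV than in iWAT, and in iWAT with leptin Slc2a4 lay at 33.3 to 119 TPM, below all PBS mice.

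Within a tissue the members spanned a wide range of levels, compared here as TPM, which is per length. In PBS-treated CV the order ran from Slc2a4 and Akt2 (104 ± 5.33 TPM) through Slc2a1 and Pik3r1 (72.3 ± 11.9 TPM) to Pde3b (23.5 ± 3.94 TPM) and Foxo1 (22.2 ± 2.96 TPM). Irs1 (14.7 ± 2.80 TPM), Insr (13.9 ± 0.915 TPM) and Irs2 (13.4 ± 0.916 TPM) followed, and Irs3 was lowest. Neighbours in this order overlapped for Slc2a1 and Pik3r1, for Pde3b and Foxo1, and among Irs1, Insr and Irs2. In iWAT Akt2 (225 ± 24.5 TPM) and Slc2a4 overlapped at the top, Pde3b reached 76.6 ± 32.5 TPM and Irs2 was lowest (10.4 ± 3.53 TPM). Akt2 alone led in LV, at 40.2 ± 3.92 TPM.

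With leptin, 5 of 10 members were called in iWAT, where 15.1% of all tested genes were called. The counts in other tissues were 2 in female CV and 0 in male CV and LV. Slc2a4 was at 208, 217, 167.03, 192 and 210.0 TPM in PBS mice and at 33.3, 119, 65.3, 50.9 and 83.0 TPM in leptin mice. All leptin mice lay below all PBS mice, and Slc2a4 fell to 0.37 of the PBS level (log2 fold change -1.44, SE 0.28, edgeR adjusted p = 0.0045). Irs1 was at 13.0, 13.7, 17.2, 15.6 and 16.5 TPM with PBS and at 32.4, 24.1, 38.0, 34.6 and 29.8 TPM with leptin. Its groups did not overlap either, and it rose 2.23-fold (log2 1.16, SE 0.14, adjusted p = 0.000388).

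Irs2 in iWAT was at 7.70, 6.55, 9.57, 13.3 and 14.7 TPM with PBS and at 22.2, 15.1, 17.4, 24.1 and 12.1 TPM with leptin. The PBS mice of the 600s were the highest of their group and overlapped the lowest leptin mouse. Irs2 rose 1.87-fold (log2 0.90, SE 0.25, adjusted p = 0.0253). Within series the difference in mean log2 TPM was 1.22 in the 100s (2 leptin against 3 PBS mice) and 0.30 in the 600s (3 against 2). With series as a covariate the edgeR log2 fold change was 0.87 (adjusted p = 0.0195). The call was lost without leptin replicate 1 or 4 or PBS replicate 1, 2 or 3, with adjusted p from 0.0553 to 0.0648.

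Downstream of the scaffolds, Pik3r1, which encodes the regulatory subunit p85α of phosphoinositide 3-kinase (chromosome 13, 101680761 to 101768217), was at 99.7, 91.4, 96.4, 81.4 and 94.6 TPM with PBS and 59.8, 74.8, 53.7, 60.9 and 38.8 TPM with leptin. The groups did not overlap, and it fell to 0.643 of the PBS level (log2 -0.64, SE 0.13, adjusted p = 0.00671). Akt2 (chromosome 7, 27591552 to 27640826) was at 195 to 259 TPM with PBS and 124 to 191 TPM with leptin, again without overlap. It fell to 0.701 of the PBS level (log2 -0.51, SE 0.14, adjusted p = 0.0247). Its fold lay just past the threshold, and it dropped under the threshold, or the adjusted p rose above 0.05, without leptin replicate 1, 3 or 4 or PBS replicate 4 (log2 -0.46 to -0.50). Of the 5 members called in iWAT 2 were higher and 3 lower, where 7.24% and 7.87% of all genes were, and 6 did not overlap between groups, as did 18.7% of all genes. Of all genes called in iWAT 47.9% were higher with edgeR and 24.7% with limma on log2(TPM + 1), where the same 5 members were called with the same signs, and Irs3 too.

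The other members in iWAT did not pass both thresholds. Slc2a1 was at 18.95 to 23.46 TPM with PBS and 24.1 to 30.3 TPM with leptin, without overlap and opposite in sign to Slc2a4, but its log2 fold change of 0.38 (SE 0.09, adjusted p = 0.0112) was under the fold threshold. Irs3 was at 25.8 to 29.4 TPM with PBS and at 9.10 to 22.7 TPM with leptin, and its groups did not overlap. Its log2 fold change was -0.58 (SE 0.20) with an adjusted p of 0.0571 in edgeR and of 0.0242 in DESeq2. Insr (chromosome 8, 3150922 to 3279649) differed by 0.32 (SE 0.16, adjusted p = 0.151), Foxo1 by 0.09 (SE 0.10, adjusted p = 0.549) and Pde3b by -0.10 (SE 0.30, adjusted p = 0.843). Pde3b differed more between PBS mice than between treatments, with 38.9 to 64.9 TPM in the 100s and 102 and 118 TPM in the 600s. The 3 leptin mice numbered in the 600s, at 63.0 to 95.5 TPM, all lay below the 2 PBS mice of that series. Their difference in mean log2 TPM was -0.56. By contrast, the 2 leptin mice numbered in the 100s, at 45.1 to 62.5 TPM, lay within the range of their 3 PBS mice (difference 0.001). Whether the leptin effect on Pde3b differed between series was not tested.

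Beside these values, the adipocyte markers in iWAT summed to 57785 to 102853 TPM with leptin, overlapping PBS, with 4 of 10 markers called lower and 1 called higher. B cell markers summed to 68.5 to 324 TPM with PBS and 7.10 to 577 TPM with leptin, and none of 6 was called. Their part in the results was not tested.

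**Figure D2:**
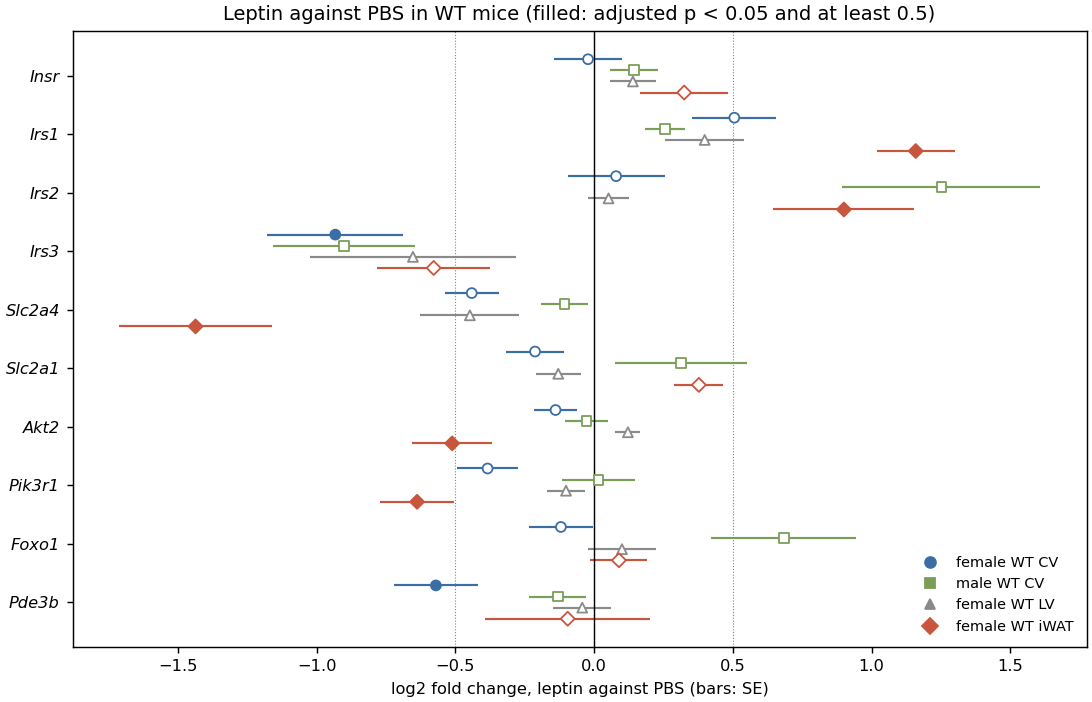
Log2 fold change for leptin against PBS (bars, SE) of each member in female WT CV, male WT CV, female WT LV and female WT iWAT; filled symbols passed both thresholds and dotted lines mark the fold threshold of 0.5. Filled symbols are Irs1, Irs2, Slc2a4, Akt2 and Pik3r1 in iWAT and Irs3 and Pde3b in female CV.

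In female CV, 2 of 10 members were called with leptin, both lower, where 5.04% of all genes were called and 2.25% were called lower. Irs3 was at 2.33, 1.75, 1.91, 1.48 and 1.96 TPM with PBS and at 0.76, 1.33, 0.97, 0.72 and 1.17 TPM with leptin. The groups did not overlap, and Irs3 fell to 0.524 of the PBS level (log2 -0.93, SE 0.25, adjusted p = 0.0384). Irs3 was on a list of lipolysis inhibitors that the study drew from these same mice. It was lower past the study's own thresholds there in both females and males, so its direction is not independent evidence. Pde3b (chromosome 7, 114415222 to 114537938) was at 22.2, 28.7, 19.3, 20.9 and 26.4 TPM with PBS and at 13.4, 11.8, 24.0, 17.9 and 14.3 TPM with leptin. One leptin mouse, replicate 3, lay within the PBS range, and Pde3b fell to 0.674 of the PBS level (log2 -0.57, SE 0.15, adjusted p = 0.0392).

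Both calls were close to the threshold. With 1 mouse left out, Irs3 was called in 2 of 10 fits (without leptin replicate 2 or PBS replicate 4) and Pde3b in 3 of 10 (without leptin replicate 3 or PBS replicate 3 or 4), with adjusted p up to 0.111 and 0.101 and the same direction in each. With a muscle score as a covariate the log2 fold change was -0.66 for Irs3 (adjusted p = 0.105) and -0.60 for Pde3b (adjusted p = 0.0657), so neither was called, while Pik3r1 was. Within series, Irs3 differed by -0.98 in the 100s and -0.87 in the 600s, and Pde3b by -0.88 and -0.36.

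Slc2a4 in female CV was at 139, 139, 124, 135 and 125 TPM with PBS and at 101, 105, 99.7, 105 and 84.5 TPM with leptin. The groups did not overlap, with a log2 fold change of -0.44 (SE 0.10, adjusted p = 0.0211) that was under the fold threshold. Over all genes 6.56% did not overlap in this comparison, and 2 of 10 members, Irs3 and Slc2a4, did not. The muscle markers summed to 24878 to 54103 TPM with leptin, with 1 of 13 called lower, and the adipocyte markers to 7601 to 13676 TPM, with 3 of 10 called lower. With the muscle score as a covariate Slc2a4 differed by -0.30 (adjusted p = 0.0382). Osteoblast and osteocyte markers were also higher with leptin, at 5210 to 15973 TPM against 2369 to 6441 TPM with 2 of 7 called, and the part of these cells in the results was not tested.

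Irs1 in female CV leaned the other way, at 11.8 to 17.9 TPM with PBS and 13.2 to 29.3 TPM with leptin. Its log2 fold change was 0.51 (SE 0.15, adjusted p = 0.0597) in edgeR, and it was called higher by DESeq2 (0.51, adjusted p = 0.0168) and in 1 edgeR fit of all CV groups (0.51, adjusted p = 0.00368). With the muscle score it was 0.26 (adjusted p = 0.22). Pik3r1 was at 57.7 to 87.1 TPM and 42.3 to 70.1 TPM (log2 -0.38, SE 0.11, adjusted p = 0.0509), and with the muscle score as a covariate it was called lower (log2 -0.53, adjusted p = 0.0147). Irs2, Foxo1, Akt2, Slc2a1 and Insr had log2 fold changes between -0.21 and 0.08 with adjusted p of 0.218 or more.

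In male CV none of the members was called, where 1.75% of all genes were, and 4 of the 10 had an unadjusted p below 0.05 (Irs1, Irs2, Irs3 and Foxo1), as did 19% of all genes, in a test that called 260 genes. DESeq2 called 2, Irs2 higher (adjusted p = 0.0286) and Irs3 lower (adjusted p = 0.0207). Of all genes called, 47.7% were higher with edgeR, 58.7% with DESeq2 and 59.0% with limma on log2(TPM + 1). Irs3 was at 1.51 to 2.03 TPM with PBS (median 1.64) and at 0.47 to 1.68 TPM with leptin (median 0.90), and 1 leptin mouse, replicate 5, lay among the PBS mice. Its log2 fold change of -0.90 (SE 0.26, adjusted p = 0.0723) was close in size to that of females, and the difference between the sexes was -0.00 (SE 0.31).

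Irs2 in male CV was at 8.98, 9.56, 8.86, 7.34 and 8.94 TPM with PBS, and at 9.81 to 42.4 TPM with leptin (median 16.5). The groups did not overlap, as for 2.19% of all genes, but the leptin mice fell apart by series. Replicates 1 to 5, all of the 100s, were at 9.92, 17.98, 15.1, 11.3 and 9.81 TPM, and replicates 6 to 8, all of the 600s, were at 29.8, 34.2 and 42.4 TPM. The difference in mean log2 TPM was 0.45 among mice of the 100s and 2.11 among those of the 600s. Over all mice Irs2 had a log2 fold change of 1.25 (SE 0.36, adjusted p = 0.0736). With series as a covariate it was 1.02 (adjusted p = 0.0318), and without the 600s mice of both groups it was 0.42 (adjusted p = 0.32).

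The same 3 leptin mice were the highest for Foxo1, the transcription factor that AKT restrains (chromosome 3, 52268337 to 52350109). They were at 28.6, 38.6 and 43.1 TPM, against 13.4 to 24.5 TPM in the other 5 leptin mice and 13.0 to 16.5 TPM with PBS. For Slc2a1 they were at 101, 99.0 and 108 TPM, against 41.9 to 64.3 TPM in the other leptin mice and 38.1 to 72.1 TPM with PBS. Foxo1 had a log2 fold change of 0.68 over all mice (SE 0.26, adjusted p = 0.171) and of 0.15 without the 600s mice (adjusted p = 0.694). Their summed muscle markers were the lowest of the leptin group, at 36661 to 41149 TPM against 47846 to 64231 TPM in the others, while the PBS mice of the 600s were at 71402 and 75953 TPM. With the muscle score as a covariate Irs2 differed by 0.32 (adjusted p = 0.516) and Foxo1 by 0.03 (adjusted p = 0.951). The part of muscle and of series in these values was not tested further.

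Sex itself gave no call in the response to leptin: none of 14873 genes was called for a difference between females and males (1130 at an unadjusted p below 0.05, 28 by DESeq2). For Irs2 the female minus male difference was -1.14 (SE 0.45, adjusted p = 0.542) and for Slc2a4 it was -0.30 (SE 0.13, adjusted p = 0.603), so responses in the 2 sexes were not shown to differ.

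LV gave no calls with leptin by edgeR among all genes (2183 at an unadjusted p below 0.05, 142 by DESeq2), and no member was called by either (DESeq2 gave no adjusted p for Irs3). Slc2a4 was at 9.45 to 13.2 TPM with PBS and 5.99 to 12.9 TPM with leptin (log2 -0.45, SE 0.18, adjusted p = 0.269). Irs3 was at 0.10 to 0.27 TPM with PBS (7 to 20 counts) and 0.06 to 0.18 TPM with leptin (4 to 12 counts), and did not pass the test (log2 -0.65, SE 0.37, adjusted p = 0.441).

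In cKO mice no member was called in CV or LV by edgeR on each comparison's own groups, and of all genes edgeR called 0.0269% in female CV, 0.188% in male CV and 0% in female LV (1331 genes at an unadjusted p below 0.05 and 72 by DESeq2 in LV). These counts depended on the fit. In female cKO CV 4 genes were called by edgeR on its own groups, 219 by DESeq2 and 507 in 1 edgeR fit of all CV groups, and in male cKO CV 28, 212 and 44. In female cKO CV Irs3 was at 1.02, 1.48, 1.57 and 1.80 TPM with PBS and at 0.68, 0.97, 0.52 and 0.66 TPM with leptin. The groups did not overlap, as for 5.02% of all genes, with a log2 fold change of -0.97 (SE 0.27, adjusted p = 0.288) next to -0.93 in WT. In 1 edgeR fit of all CV groups it was called lower in these mice (-0.98, adjusted p = 0.0432). Slc2a4 did not overlap either (100.4 to 140.4 against 82.4 to 92.3 TPM, log2 -0.31, SE 0.12, adjusted p = 0.391). In male cKO CV Pde3b was at 16.7 to 21.8 TPM with PBS and 11.9 to 13.2 TPM with leptin, apart as for 2.72% of all genes (log2 -0.53, SE 0.14, adjusted p = 0.164, and 0.0299 by DESeq2). Series were uneven there, with 2 PBS mice of the 100s and 3 of the 5000s against leptin mice of the 100s (1), 600s (2) and 5000s (1). The genotypes were not shown to differ in the response to leptin, since edgeR called no gene for that difference in females (906 at an unadjusted p below 0.05, 1 by DESeq2) or in males (393, 0 by DESeq2). With PBS, edgeR called no gene between cKO and WT CV in females (1476 at an unadjusted p below 0.05, 47 by DESeq2) or males (783, 40 by DESeq2), and no member was called by either tool.

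The difference between the tissues was tested directly in the females, as the leptin effect in CV minus that in iWAT. Of 10 members 4 were called, where 13.3% of all genes were. Slc2a4 was lower with leptin in both tissues, and by a log2 1.01 less in CV than in iWAT (SE 0.30, adjusted p = 0.0191). Irs1 (-0.63, SE 0.21, adjusted p = 0.0356) and Irs2 (-0.80, SE 0.28, adjusted p = 0.0412) had smaller values in CV than in iWAT. For Slc2a1 the effects had opposite signs, -0.21 in CV and 0.38 in iWAT, with a difference of -0.57 (SE 0.13, adjusted p = 0.00237). Irs3 did not pass this test, with a difference of -0.34 (SE 0.34, adjusted p = 0.507). With 1 mouse left out of all its tissues, Slc2a1 kept its call in 10 of 10 fits, Slc2a4 in 9 (not without PBS replicate 5, adjusted p = 0.0534), and Irs1 and Irs2 in 3 each. With the mouse as a block all 4 calls held (adjusted p from 0.000569 to 0.0251). With limma on log2(TPM + 1), 1 of the 10, Slc2a4, was called, and 74.3% of the genes called had a higher value in CV, against 53.7% with edgeR. Against LV the leptin effect in CV gave no called member, where 0.814% of genes were called.

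**Figure D3:**
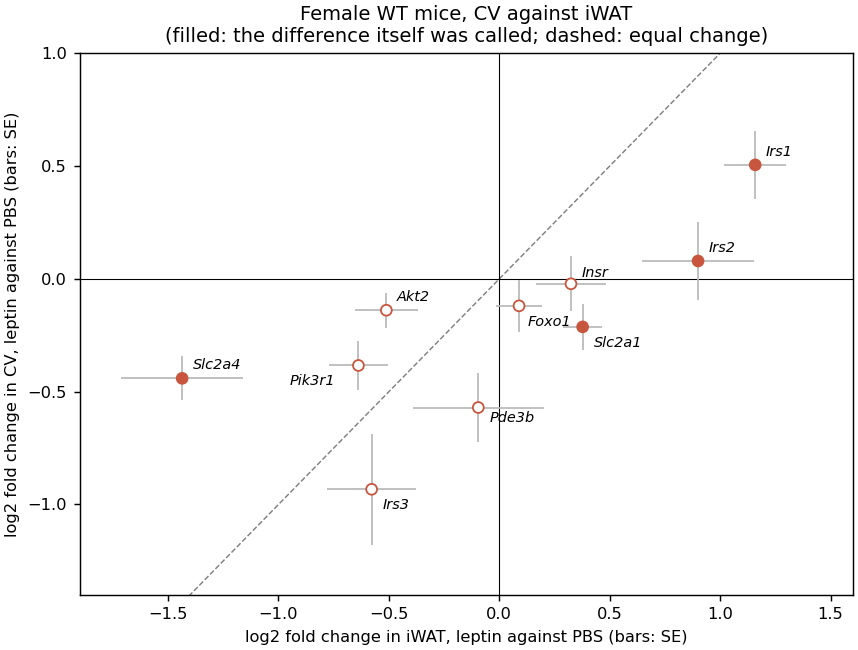
Leptin effect on each member in CV (vertical axis) against that in iWAT (horizontal axis) of female WT mice, as log2 fold changes with SE; filled points are members whose difference between tissues was called, and the dashed line marks equal change. Slc2a4, Slc2a1, Irs1 and Irs2 are filled, and Irs3 lies below 0 in both tissues.

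Insulin was given with leptin to see the leptin response when insulin is not low. The study reports that its pellets, with pair feeding, took circulating insulin above control levels while blood glucose stayed low. These leptin mice thus had high insulin and low glucose rather than normal levels of both. None of the members was called between leptin with insulin and leptin alone in male CV, where 54 genes or 0.363% were called (21 of them higher, and 8 of the 16 called by limma on log2(TPM + 1)), and the comparisons of this section share their groups of mice. Slc2a4 was at 178.31 to 231 TPM with leptin and insulin (median 215), against 143 to 193 TPM with leptin (median 155), 145 to 188.52 TPM with PBS (median 165.32) and 121 to 201 TPM with PBS and insulin (median 182.57). One leptin mouse, replicate 3 at 193 TPM, overlapped the insulin group, and Slc2a4 was 1.35-fold higher with insulin (log2 0.43, SE 0.10, adjusted p = 0.040), under the fold threshold. It was 0.43 (adjusted p = 0.0723) without the 600s mice and 0.42 (adjusted p = 0.0229) with the muscle score as a covariate. The muscle markers summed to 42544 to 77069 TPM in the leptin and insulin group, overlapping leptin alone. Against PBS the leptin and insulin group differed by 0.32 for Slc2a4 (SE 0.11, adjusted p = 0.134).

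Irs3 was at 1.48, 1.53, 1.18, 1.3, 0.65 and 0.81 TPM with leptin and insulin, all within the leptin range of 0.47 to 1.68 TPM and with 1 mouse above the lowest PBS mouse. It differed by 0.32 from leptin (SE 0.23, adjusted p = 0.508) and by -0.58 from PBS (SE 0.25, adjusted p = 0.218), so with these numbers neither a return nor its absence was shown. Irs2 was at 10.3, 14.0, 9.41, 7.34, 11.9 and 29.3 TPM, with replicate 6 far above the others. It differed by -0.65 from leptin (SE 0.31, adjusted p = 0.296), and by 0.13 (adjusted p = 0.832) without the 600s mice. Foxo1 was also highest in that replicate, at 38.9 TPM against 14.2 to 20.04 TPM in the rest. Slc2a1 was at 64.7 to 168.7 TPM, with replicate 5 highest, and differed from PBS by 0.70 (SE 0.26, adjusted p = 0.156). Insr, Akt2, Pik3r1, Irs1 and Pde3b differed from leptin by -0.12 to 0.18 with adjusted p of 0.381 or more.

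Insulin with PBS called no gene by edgeR against PBS (976 at an unadjusted p below 0.05, 3 by DESeq2). Irs2 was at 9.88 to 11.3 TPM with PBS and insulin, all above the PBS mice, as for 4.65% of all genes not overlapping, with a log2 difference of 0.14 (SE 0.37, adjusted p = 0.977). Pde3b was at 20.03 to 26.6 TPM (median 22.5) there and at 10.4 to 22.9 TPM (median 17.9) with leptin and insulin (log2 -0.36, SE 0.13, adjusted p = 0.18). That leptin comparison within insulin-treated mice called 0.558% of genes and the comparison of leptin and insulin with PBS called 1.10%, with no member in either. All PBS and insulin mice were in the 300s, and the 3 mice of the 400s all had leptin and insulin. The 400s include the highest mice of that group for Irs2, Foxo1 and Slc2a1. Series and leptin are thus partly mixed within the insulin-treated mice. The interaction of insulin and leptin called no gene (1385 at an unadjusted p below 0.05, 13 by DESeq2), and for Slc2a4 it was 0.45 (SE 0.15, adjusted p = 0.529).

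**Figure D4:**
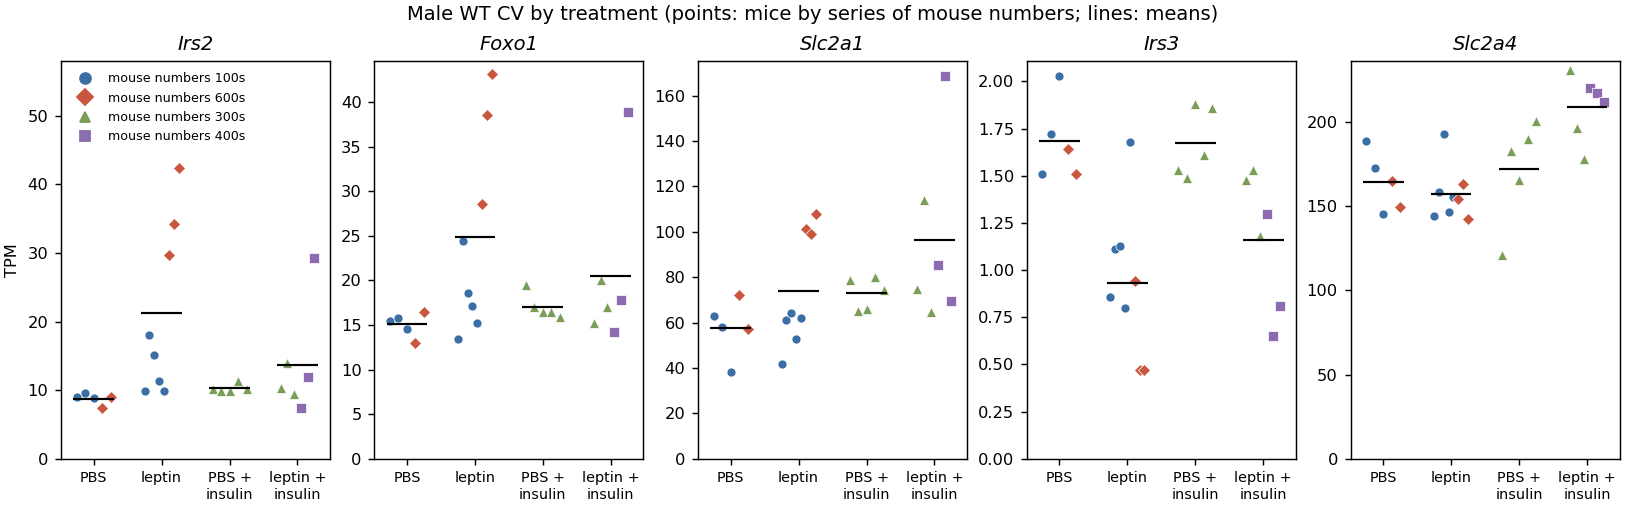
TPM of Irs2, Foxo1, Slc2a1, Irs3 and Slc2a4 in CV of WT males by treatment, with 5, 8, 5 and 6 mice; symbols give the series of mouse numbers and lines are means. Within the leptin group the 3 mice of the 600s are highest for Irs2, Foxo1 and Slc2a1, leptin with insulin holds the highest mouse of all for Slc2a1 (168.7 TPM) and 1 mouse at 38.9 TPM for Foxo1, and its mean is the highest for Slc2a4.

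The rest of the pathway was counted in lists of 142 other genes, of which 136 were tested. In female CV 2 were called higher and 8 lower, where 2.78% and 2.25% of all genes were, with a median log2 fold change of -0.05 beside -0.01 over all genes. In male CV 4 were called higher and 1 lower, where 0.834% and 0.914% of all genes were (median 0.02 beside 0.00). Grb14, an adaptor that inhibits the receptor's kinase, fell in both sexes. It was at 15.9 to 17.7 TPM with PBS and 10.1 to 13.1 TPM with leptin in females (log2 -0.62, SE 0.09, adjusted p = 0.00495) and at 13.51 to 18.99 and 7.61 to 11.6 TPM in males (log2 -0.78, SE 0.13, adjusted p = 0.0055). Socs3, an inducible inhibitor of cytokine, leptin and insulin receptor signalling, was called higher in both. The log2 fold change was 0.54 in females (SE 0.12, adjusted p = 0.0251) and 0.80 in males (SE 0.20, adjusted p = 0.0487, close to the threshold). It was at 12.88 to 20.12 TPM with PBS and 19.2 to 27.36 TPM with leptin in females, and at 10.43 to 18.95 and 19.96 to 44.21 TPM in males. Fits with series or muscle, or without a mouse, are not given for Grb14 or Socs3. Of the 19 FOXO target genes tested, which include Irs2 and Insr, 1 was called higher in male CV and 1 lower in female CV, with medians of 0.36 and -0.03, and 17 and 7 of them above 0, beside 7451 and 7100 of all 14873 genes. Without the 600s mice the male median was 0.10 with 16 of 19 above 0 and none called, where 33 of all genes were called. With the muscle score as a covariate it was 0.095 with 13 above 0 and none called, and with series as a covariate 0.34 with 17 above 0 and 4 called higher. The 600s leptin mice were also those with the lowest muscle markers of their group, and the part of series or muscle in this list was not tested.

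In iWAT 13 of the 136 rose and 26 fell, where 7.24% and 7.87% of all genes did (median -0.02 beside 0.07). Of 19 genes of glucose phosphorylation and glycogen 7 fell and 1 rose (median -0.49). Hk2, the insulin-responsive hexokinase, went from 43.5 to 69.5 TPM with PBS to 11.3 to 26.5 TPM with leptin (log2 -1.56, SE 0.22, adjusted p = 0.00087), and Ppp1r3b, a glycogen-targeting subunit of protein phosphatase 1, fell by 2.54 on the log2 scale (SE 0.52, adjusted p = 0.00581). Slc2a5, the fructose transporter GLUT5, went from 36.2 to 60.0 TPM to 0.26 to 19.1 TPM (log2 -2.62, SE 0.70, adjusted p = 0.0201). Cav1, the main structural protein of caveolae, went from 664 to 854 TPM to 139 to 294 TPM (log2 -1.83, SE 0.18, adjusted p = 0.000108). Deptor, an mTOR inhibitor, fell by 1.80 on the log2 scale (SE 0.15, adjusted p = 4.90e-05) and Gnai1, a Gi subunit that restrains adenylyl cyclase, by 1.76 (SE 0.17, adjusted p = 0.000108). Pde4d, another cAMP phosphodiesterase, rose by 2.50 (SE 0.33, adjusted p = 0.000672), from 4.21 to 5.25 TPM with PBS to 9.28 to 35.3 TPM with leptin, while Pde3b did not pass the test. Of 9 glucose transporters tested in iWAT 1 rose and 3 fell, Slc2a4 among them.

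With insulin added to leptin in male CV, Gys2, the liver and fat form of glycogen synthase, was the 1 pathway gene called. It was at 0.06 to 0.13 TPM against 0.26 to 0.69 TPM with leptin alone (log2 -2.15, SE 0.36, adjusted p = 0.0127), a low level in both groups.

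Across the 16 group means of log2(TPM + 1), the genes most like the called members were Echdc1 and Ifi27 for Irs3 (Pearson r of 0.994 and 0.992), Serpina3n and Ufd1 for Slc2a4 (0.996 and 0.995), Vtn and Cnn1 for Pde3b (0.998 and 0.996) and Arid5b and Dennd2a for Irs1 (both 0.991). For Irs2 they were Cblb and Slc15a4 (0.979 and 0.978), for Akt2 Tmlhe and Bcap31 (both 0.995) and for Pik3r1 Oxsr1 and Kpna6 (0.994 and 0.992). These points share mice and 3 tissues whose levels lie far apart, and 10780 genes were compared.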

How the data were processed

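RNA of 79 samples was enriched with oligo-dT, primed with random hexamers and sequenced as reads of 100 bases. Per the labels the authors used HISAT and Bowtie2, with GRCm38.p6 and GRCm39 both listed, and the tool that counted reads is not given in the sources used here. The deposited tables hold estimated counts, of which 51 values in 6 genes, none of them a member, were not whole and were rounded, and TPM values computed by the authors. Depth was 16100377 to 29757254 counts per library. Count-based tests used edgeR 4.0.16 (quasi-likelihood, TMM scaling, Benjamini-Hochberg adjustment over the 14873 genes whose mean reached 0.4 TPM) in R 4.3.3. A gene was called where the adjusted p was below 0.05 and the log2 fold change reached 0.5 in either direction, and the SE is the absolute log2 fold change over the square root of F. Each comparison was fitted on its own groups, tissues and insulin comparisons in 1 fit of the groups involved. Alternatives were DESeq2 1.42.0, limma 3.58.1 on log2(TPM + 1) and log2(TPM + 0.1), other scaling and filters, covariates for series and muscle, replicate blocks and leaving out each mouse. Scripts were tested on simulated counts.

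The members and gene lists were chosen with earlier results of these data known. Named beside the 10 members were pathway genes called in both sexes of WT CV, the 8 largest called in iWAT at a mean of at least 1 TPM (1 of which is not reported here), those called for insulin with leptin, and for each member called by leptin in WT mice the 2 genes with the highest r among genes at a mean of at least 5 TPM. CV, LV and iWAT of the same number came from the same female, and deviations of such samples from their group means had a mean correlation of 0.0607 to 0.15. Where leptin and PBS groups shared replicate numbers, the mice differed. Replicates are separate mice.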

Additional observations from a re-analysis of the deposited data

Results flagged for a closer look

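Among 160 sets of a member and a group, 11 held a sample far from the others of its group, where chance gives about 8.0. Irs2 and Foxo1 in CV of males with leptin and insulin were both highest in replicate 6, at 29.3 TPM (7.34 to 13.95 TPM in the rest) and 38.9 TPM (14.24 to 20.04 TPM in the rest). Irs2 was also highest in replicate 4 of PBS with insulin, at 11.3 TPM against 9.88 to 10.17 TPM, and in replicate 4 of female WT LV with leptin, at 5.25 TPM against 3.86 to 4.18 TPM. Slc2a4 was lowest in replicate 5 of female WT CV with leptin, at 84.5 TPM against 99.7 to 105.33 TPM, and highest in replicate 3 of male WT CV with leptin, at 193 TPM against 142.51 to 163.42 TPM. Insr was highest in replicate 2 of female WT CV with PBS, at 15.5 TPM against 13.32 to 13.95 TPM, and in replicate 3 of female WT iWAT with leptin, at 31.8 TPM against 18.93 to 21.42 TPM. Irs1 was highest in replicate 1 of male cKO CV with leptin, at 15.5 TPM against 9.57 to 10.19 TPM. Pde3b was highest in replicate 3 of female cKO LV with PBS, at 2.64 TPM against 1.76 to 1.88 TPM, and lowest in replicate 2 of male cKO CV with leptin, at 11.9 TPM against 13.02 to 13.23 TPM.

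The leptin effect differed between CV and iWAT, at an adjusted p below 0.05 in edgeR, for 5 members. The difference, CV minus iWAT, was -0.63 for Irs1, -0.80 for Irs2, 1.01 for Slc2a4, -0.57 for Slc2a1 and 0.39 for Akt2 (adjusted p = 0.0479), the last under the fold threshold.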

How the results depend on the processing

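The count of members called in female WT CV with leptin was 2, and 1 with limma on log2(TPM + 1), with limma on log2(TPM + 0.1) and with the replicate block, in each of which Irs3 kept its call, and with the muscle score, where Irs3 and Pde3b lost theirs and Pik3r1 was called lower. It was 3 with DESeq2 and with 1 fit of all CV groups, where Irs1 was called higher beside Irs3 and Pde3b. In male WT CV it was 0, and 2 with DESeq2, 2 with series as a covariate and 3 with 1 fit of all CV groups. It went from 0 to 1 in female cKO CV with that 1 fit, in male cKO CV with DESeq2 and for leptin with insulin against leptin on the adjusted p alone, and from 4 to 1 for the tissue difference CV against iWAT with either limma setting. Slc2a1 between iWAT and LV turned to 0.71 and 0.75 on the TPM scale. Leaving out 1 mouse gave 0 to 3 members in female WT CV, 0 to 2 in male WT CV, 3 to 6 in iWAT, 2 to 4 for the tissue difference CV against iWAT, 8 to 9 for iWAT against LV, 9 in each fit for CV against LV, 6 in each for CV against iWAT and 0 to 0 in the other comparisons. Over all genes, male WT CV gave 260 calls, 465 with DESeq2, 416 with series, 418 with 1 fit, 65 with the replicate block and 33 without the 600s mice, the last chosen after seeing the data, as were the mouse block and the settings for FOXO target genes. Female cKO CV gave 4 calls, 219 with DESeq2, 507 with 1 fit and 13 with the replicate block, and male cKO CV gave 28, 212, 44 and 14. Female WT LV gave 0, 142 with DESeq2, 78 with series, 9 without a filter on level and 2 and 3 with limma. The adjusted p alone gave 1306 genes against 749 in female WT CV, 434 against 260 in male WT CV, 3872 against 2248 in iWAT and 3001 against 1980 for the tissue difference CV against iWAT, and the tissue difference CV against LV gave 121, 319 with DESeq2, 79 without a filter and 32 with limma on log2(TPM + 0.1). The sex difference gave 0, 28 with DESeq2, 4 with limma on log2(TPM + 1) and 48 with the replicate block. Leptin with insulin against PBS gave 164, 269 with DESeq2, 97 with limma on log2(TPM + 1), 284 on the adjusted p alone, 101 with 1 fit and 109 with the muscle score, and leptin with insulin against PBS with insulin 83, 230 with DESeq2, 131 on the adjusted p alone and 151 without the 600s mice. Leptin with insulin against leptin gave 54 calls, 96 on the adjusted p alone, 174 with DESeq2, 16 and 12 with limma and 111 with the muscle score. The replicate block took the call of Pde3b in female WT CV (log2 -0.58, adjusted p = 0.0662) and changed no other member's call. Leptin and PBS mice with the same replicate number correlated at a mean of -0.121 to 0.197, with not every pair above 0.1 in any comparison. They were separate mice, but many of these pairs also shared a series of mouse numbers. The replicate block is thus partly mixed with series. The causes were not tested. The series covariate was not run where cKO mice enter, since at least 1 series there held mice of 1 group only, and Irs3 in LV rested on 4 to 20 counts a WT library.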
